A study of Homo sapiens with 6 samples.

Results

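The 55 genes described here encode the machinery that copies DNA in S phase. They were chosen by name and make up 55 of the 17534 genes measured in MM.1R, an established line of human myeloma cells that resists glucocorticoids. Affymetrix PrimeView arrays, which read each gene with 1 or more probe sets near the 3' end of its transcript, had been hybridised with labelled RNA from 6 samples. The 3 control samples carried shCtrl, a short hairpin control vector, and the 3 treated samples had received epirubicin hydrochloride, an anthracycline that poisons topoisomerase II. The question was how the cells respond to a drug given to inhibit their growth. A vector is named in the labels only for the controls, so vector and drug cannot be told apart, and neither the dose nor the length of treatment is given in the sources used here. Nothing says whether the 3 samples of a group came from separate cultures, so p-values cover no more than the sample-to-sample spread seen here, part or all of which may be technical.

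Replication begins before S phase, when the origin recognition complex (ORC) with CDC6 and CDT1 loads the MCM2 to MCM7 helicase onto DNA, a step called licensing. In S phase the kinase CDC7 with its partner DBF4, together with CDC45 and the GINS complex, turns the loaded helicase on. Polymerases held to DNA by the PCNA ring then copy both strands from deoxynucleotides supplied by ribonucleotide reductase, thymidylate synthase and thymidine kinase. Many of these genes are transcribed under E2F control and are repressed through p21 and the DREAM complex when p53 is active. The members fell into 6 roles: 15 genes of licensing, 8 of helicase activation, 9 of polymerases and primase, 12 of clamp, clamp loading and lagging strand, 4 of nucleotide supply and 7 of fork protection, turnover and chromatin.

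Each gene is given as a log2 value on the probe set that was brightest over the 6 arrays, and differences are epirubicin minus control. A gene was said to rise or fall when limma's adjusted p was under 0.05 and the fold change was at least 1.3, that is 0.379 on the log2 scale. All 55 members were measured, each with a mean above 5.54, the median of all values. Levels of different genes are not compared, since each probe set has its own response. The RNA was from bulk cells, so a smaller share of cells in S phase and less of a transcript per cell cannot be told apart.

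Pairs of arrays within a group had a higher correlation over probe sets (r = 0.998213 to 0.99847) than pairs between groups (0.994496 to 0.994729); probe sets are not independent replicates. CDKN1A, which encodes the p21 protein that binds both cyclin-dependent kinases and PCNA, was given as a check of the drug response. It lay at 10.08, 10.06 and 10.08 in control arrays and at 11.96, 11.96 and 11.94 with epirubicin, a 3.68-fold rise (log2 difference 1.88, SE 0.03, limma adjusted p = 1.15e-06). Of 9 plasma cell markers all 9 lay above the median of all values, and SDC1 and TNFRSF17 had control means of 11.72 and 12.35, while CD38 fell by 1.18 and IRF4 by 0.49 on the log2 scale. At any fold XBP1 and PRDM1 were lower too, by 0.24 and 0.12, and POU2AF1 and SLAMF7 were higher by 0.25 and 0.23. Few markers of other lineages lay above that median: 1 of 3 for B cells (PAX5), 1 of 7 for T and NK cells, 1 of 6 for myeloid cells, 0 of 5 for stromal and 0 of 5 for epithelial cells. None of these non-plasma markers passed the test with its fold threshold (limma; at an unadjusted p under 0.05, 2, 2, 2, 1 and 1 were higher and 1 epithelial marker lower). The T cell marker CD2 was higher by 0.35 at any fold, at a control mean of 4.70, while its second probe set fell by 0.39. Among the B cell markers, PAX5 had a control mean of 9.77, while CD22 and MS4A1 had 5.40 and 3.69. The MS4A1 value was under 3.84, the smallest of the arrays' lower quartiles.

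Of the 55 members, 52 neither rose nor fell, 2 rose and 1 fell with epirubicin, which is 3.64% and 1.82% of them. Among all genes 4.36% rose and 2.14% fell, 6.51% together, so the share of members that moved was not above that background. GINS4, a subunit of the GINS complex, rose 1.51-fold, PCNA, the sliding clamp, rose 1.37-fold, and DBF4, the activating partner of CDC7, fell 1.33-fold. The members' median log2 difference was 0.03, against 0.02 over all genes, and 45.5% of members differed by less than 0.1 on the log2 scale, against 51.5% of all genes. At a smaller fold, 16 members were higher and 10 lower at a limma adjusted p under 0.05. That is 29.1% and 18.2% of members, against 15.6% and 13.5% of all genes. At an unadjusted limma p under 0.05, 20 members were higher and 11 lower, against 3772 and 3129 of the 17534 genes. All 55 members lie among the 9935 genes above the median of all values, of which 9.33% rose or fell. In those genes 22% were higher and 22.2% lower at any fold, 44.1% together, which is near the members' 26 of 55. The counts at any fold shrank whichever array was left out, to between 8 and 12 higher and between 6 and 9 lower. The count of higher members was 10 when arrays were centred on their medians, 20 with quantile normalization, 21 when dim genes were left out of the fit and 22 with a trended, robust prior.

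**Figure D1:**
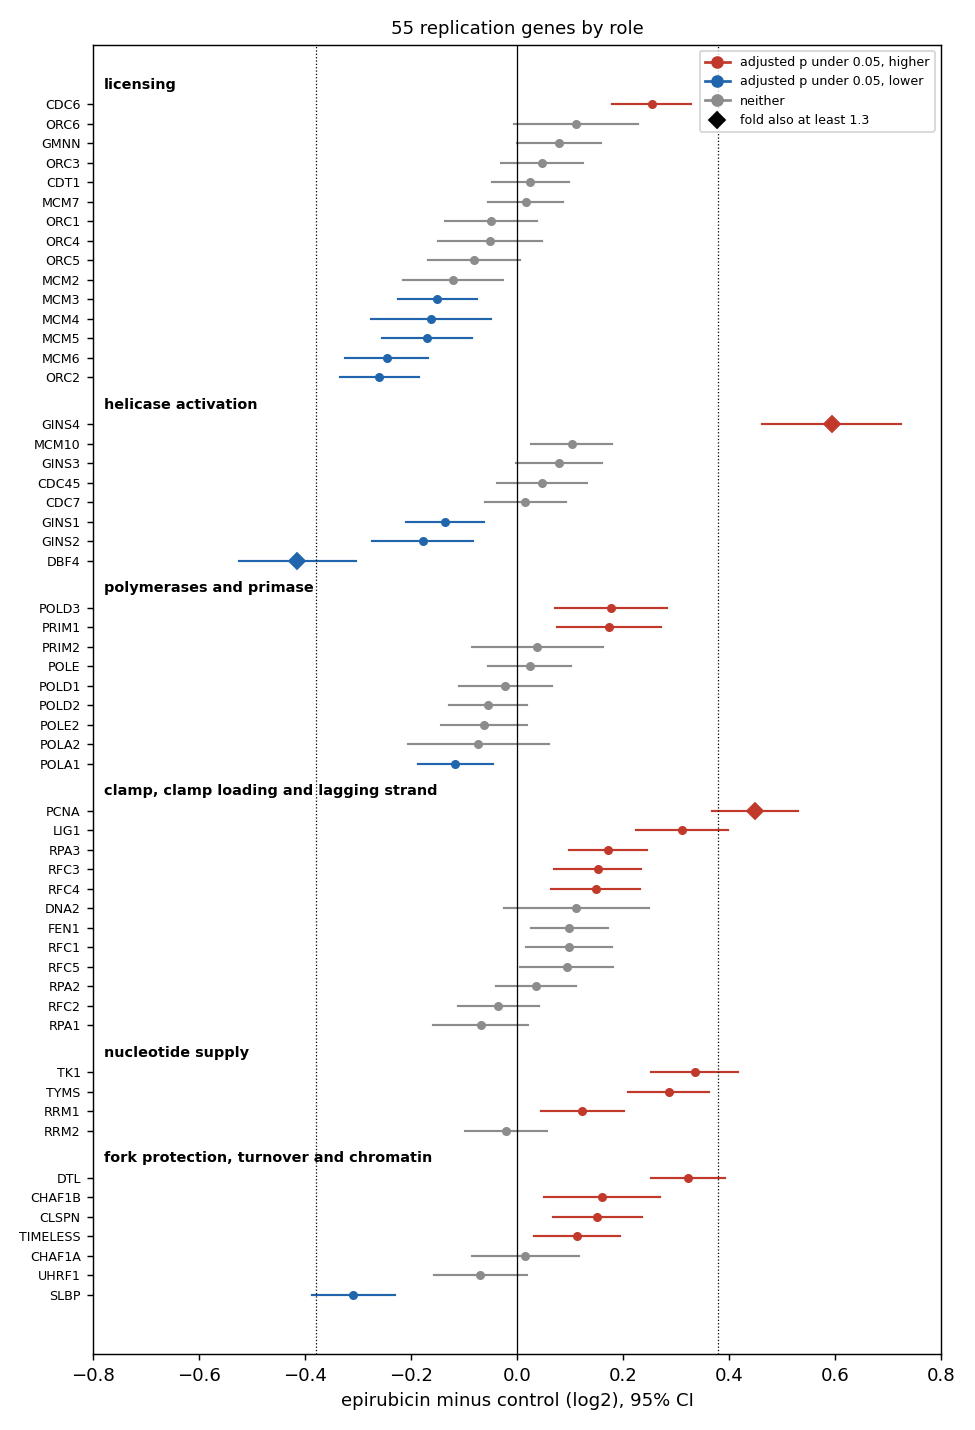
The log2 difference of epirubicin minus control is plotted for each of the 55 members by role, with its 95% confidence interval from limma (3 arrays per group). Dotted lines mark 0.379, a fold of 1.3; the diamonds of GINS4, PCNA and DBF4 are the only points beyond them, and the blue points of MCM3 to MCM6 and ORC2 gather on the lower side of licensing.

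Of these 26 members, 13 kept an adjusted p under 0.05 and their direction in each of 13 alternative analyses, which leave out the test against a fold of 1.3. The 8 higher ones were GINS4, PCNA, TK1, DTL, LIG1, TYMS, CDC6 and RPA3. The 5 lower ones were DBF4, SLBP, ORC2, MCM6 and MCM5. In 25 of the 55 members all 3 epirubicin arrays lay above all 3 control arrays and in 16 all lay below, or 45.5% and 29.1%. Among all genes the corresponding shares were 23.8% and 20.1%, or 43.8% without overlap in either direction. Those shares take in dim genes, while all 55 members lie above the median of all values. Shares without overlap were not taken among the brighter genes alone, so an excess of members cannot be read from them.

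**Figure D2:**
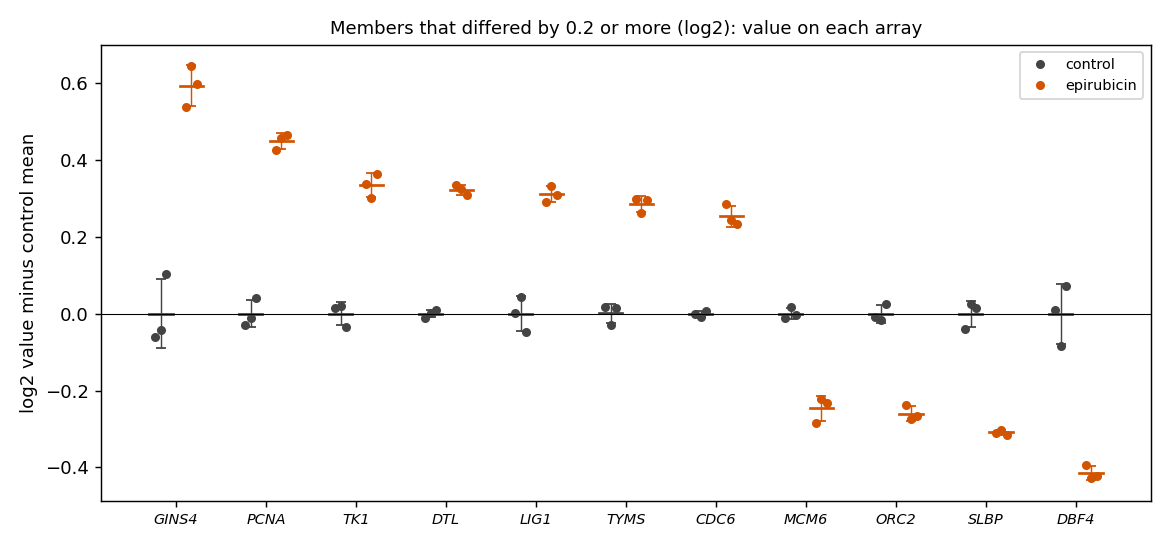
Points give the log2 value of each array minus the control mean for the 11 members that differed by 0.2 or more, with bars at the group mean ± SD (3 arrays per group; the 3 points of a group have no order). In all 11 genes the control and epirubicin arrays do not overlap, from GINS4 at 0.59 above control to DBF4 at 0.41 below.

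None of the 15 licensing genes rose or fell (limma; at an unadjusted p under 0.05, 1 was higher and 6 lower). At any fold 5 were lower and 1 higher, or 33.3% and 6.67%, against 13.5% and 15.6% of all genes. Among genes above the median of all values 22.2% were lower and 22% higher. The median difference of the licensing genes was -0.05. The 5 were ORC2 and 4 subunits of the MCM helicase, and the higher one was CDC6.

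MCM2 to MCM6, subunits of the helicase ring, differed by small amounts and kept a negative sign in all 14 alternatives. MCM6 lay at 10.03, 10.05 and 10.03 in control arrays and at 9.75, 9.82 and 9.80 with epirubicin. Its 2 groups did not overlap, and the difference was -0.25 (SE 0.03, limma adjusted p = 0.00201), 1.19-fold lower. MCM5 went from 8.08 ± 0.006 to 7.91 ± 0.05, MCM4 from 11.19 ± 0.08 to 11.02 ± 0.02 and MCM3 from 10.26 ± 0.02 to 10.11 ± 0.02 (SD, n = 3). Their adjusted p in limma were 0.0121, 0.0427 and 0.0121. In a fit over all probe sets, 4 of the 5 MCM4 probe sets were lower at any fold (limma adjusted p = 0.000795 to 0.0313). These 4 differed by -0.20 to -0.37, and the brightest, used for the gene, did not pass there (limma adjusted p = 0.0539). As a gene, MCM4 passed in 6 of the 13 alternatives. Its misses included quantile normalization (limma adjusted p = 0.107) and the fits without control replicate 2, control replicate 3 or any 1 epirubicin replicate (0.0877 to 0.117). MCM2 differed by -0.12 and did not pass (CI -0.21 to -0.03, limma adjusted p = 0.0632), although its 3 epirubicin arrays lay below its 3 control arrays. The grouping of MCM2 to MCM6, which leaves out MCM7, was not planned and follows the values. Its 5 genes are read by 17 probe sets. In all 17 the epirubicin arrays lay below every control array, against 21.1% of all probe sets, dim ones included. Of the 17, 12 passed at any fold, against 13.3% of all probe sets lower. Probe sets of 1 gene share their transcript and are not replicates.

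MCM7, the remaining subunit of the helicase ring, was at 11.45, 11.41 and 11.43 in control arrays and at 11.44, 11.46 and 11.44 with epirubicin. Its groups overlapped, with a difference of 0.02 (CI -0.06 to 0.09) on the probe set used. Of the 4 MCM7 probe sets 3 lay below 0, down to -0.11, and none passed at any fold. In 2 of them the epirubicin arrays lay below every control array. The direction of MCM7 turned to -0.05 as a mean over its 4 probe sets and to -0.02 when arrays were centred on their medians. Whether MCM7 differed from the other 5 subunits was not tested.

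Among the origin recognition genes, ORC2 lay at 7.94, 7.93 and 7.98 in control arrays and at 7.71, 7.68 and 7.68 with epirubicin. The groups did not overlap, and ORC2 was lower (log2 difference -0.26, SE 0.03, limma adjusted p = 0.00136). The other 5 ORC genes did not pass, with differences of -0.05 for ORC1, 0.05 for ORC3, -0.05 for ORC4, -0.08 for ORC5 and 0.11 for ORC6. ORC6 had control values of 9.19, 9.18 and 9.29, just under its lowest epirubicin array at 9.30.

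CDC6, the ATPase that brings the helicase to ORC, was the licensing gene with the largest upward difference. Its control arrays lay at 9.32, 9.31 and 9.33 and its epirubicin arrays at 9.60, 9.56 and 9.55. The groups were well apart, at a difference of 0.25 (SE 0.03, limma adjusted p = 0.00147), 1.19-fold higher. The second probe set of CDC6 differed by 0.11 and did not pass. CDT1, which loads the helicase with CDC6, differed by 0.02 (CI -0.05 to 0.10), and its sign turned when arrays were centred. The other 2 probe sets of CDT1 differed by 0.16, which passed at any fold (limma adjusted p = 0.0378), and 0.19, and the mean over all 3 was 0.125 (limma adjusted p = 0.0521). GMNN, which encodes geminin, the inhibitor of CDT1, differed by 0.08 (limma adjusted p = 0.128).

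Helicase activation held the largest differences in both directions. Of its 8 genes 1 rose and 1 fell. At any fold 1 was higher and 3 lower, or 12.5% and 37.5%, against 15.6% and 13.5% of all genes. Among genes above the median of all values these shares were 22% and 22.2%. GINS4 lay at 7.51, 7.53 and 7.68 in control arrays and at 8.11, 8.22 and 8.17 with epirubicin. The lowest epirubicin array was above the highest control array, and the difference was 0.59 (SE 0.05, CI 0.46 to 0.72, limma adjusted p = 0.000507). All 4 probe sets of GINS4 rose, by 0.40 to 0.59, against 3.65% of all probe sets.

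DBF4 lay at 9.08, 8.98 and 9.14 in control arrays and at 8.67, 8.64 and 8.64 with epirubicin. The control arrays were spread more widely, but all stood above the epirubicin arrays. The difference was -0.41 (SE 0.05, CI -0.53 to -0.30, limma adjusted p = 0.00101). All 7 probe sets fell, by 0.41 to 0.63 on the log2 scale, against 2.62% of all probe sets. Without control replicate 3 the difference was -0.38, just short of the fold threshold at a limma adjusted p of 0.00403, and the count of members that fell was then 0.

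CDC7, the kinase that DBF4 activates, differed by 0.02 (CI -0.06 to 0.09) on its brightest probe set. Its other 2 probe sets differed by -0.14 and -0.20, and the mean over all 3 was -0.11 (limma adjusted p = 0.0215), so the direction of CDC7 depended on the probe set. The other GINS genes differed by less. GINS1 went from 9.82 ± 0.02 to 9.68 ± 0.02 and GINS2 from 7.73 ± 0.04 to 7.56 ± 0.05 (SD, n = 3), with limma adjusted p of 0.0174 and 0.0160. GINS3 differed by 0.08 and did not pass. MCM10, needed to start the activated helicase, differed by 0.10 (limma adjusted p = 0.0547), and CDC45 by 0.05 (CI -0.04 to 0.13), or -0.06 as a mean over its probe sets.

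**Figure D3:**
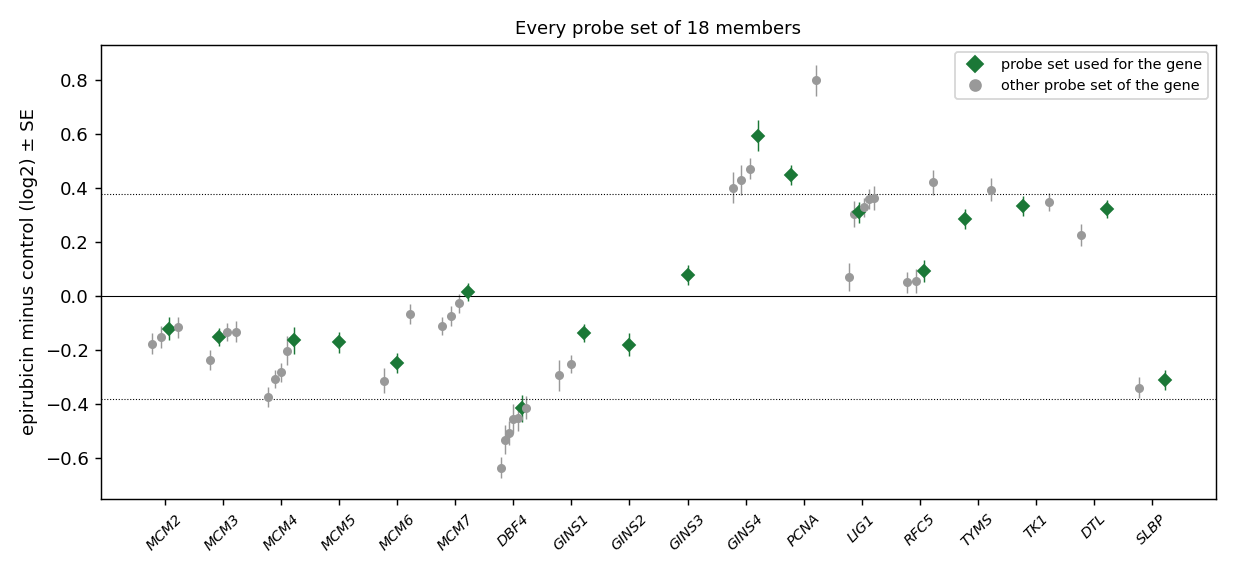
Each point is 1 probe set of 18 members, as its log2 difference ± SE from limma over all 47481 probe sets, with a diamond for the probe set used for the gene. All 7 DBF4 probe sets lie below the lower dotted line at a fold of 1.3, and all 4 GINS4 probe sets above the upper line. All 17 of MCM2 to MCM6 lie below 0, as do 3 of the 4 of MCM7.

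Of the 9 polymerase and primase genes none rose or fell, and none differed by 0.2 or more. At an unadjusted limma p under 0.05, 2 were higher and 1 lower. At any fold 2 were higher and 1 lower, or 22.2% and 11.1%, against 15.6% and 13.5% of all genes. Among genes above the median of all values these shares were 22% and 22.2%. POLD3, an accessory subunit of polymerase delta, lay at 8.05, 8.02 and 8.11 in control arrays and at 8.20, 8.31 and 8.20 with epirubicin, without overlap (0.18, SE 0.04, limma adjusted p = 0.0248). Its other 2 probe sets differed by 0.07 and 0.0088 and did not pass, the mean over all 3 was 0.0863, and the call was kept in 7 of 13 alternatives. PRIM1, the catalytic subunit of primase, lay at 8.99, 8.98 and 9.01 and at 9.12, 9.24 and 9.14 (0.17, SE 0.04, limma adjusted p = 0.0197). Epirubicin arrays stood above control arrays in both genes. POLA1, the catalytic subunit of polymerase alpha, which extends the primers, was lower by 0.12 (SE 0.03, limma adjusted p = 0.0261), a call kept in 6 of 13 alternatives. The catalytic subunits of the replicative polymerases delta and epsilon, POLD1 and POLE, differed by -0.02 and 0.02, with intervals of -0.11 to 0.07 and -0.05 to 0.10. The signs of both turned under a change of normalization. POLA2, PRIM2, POLD2 and POLE2 differed by -0.07, 0.04, -0.06 and -0.06 and did not pass, and PRIM2 turned to -0.01 without epirubicin replicate 3.

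Of the 12 genes of the clamp, its loader and the lagging strand, 1 rose and 0 fell. At an unadjusted limma p under 0.05, 8 were higher and 0 lower. At any fold 5 were higher, or 41.7%, against 15.6% of all genes and 22% of genes above the median of all values. The median difference was 0.10. In 9 of the 12 all epirubicin arrays lay above all control arrays, against 23.8% of all genes, dim ones included. PCNA lay at 11.76, 11.78 and 11.83 in control arrays and at 12.21, 12.24 and 12.25 with epirubicin. The groups were far apart against their spread, at a difference of 0.45 (SE 0.03, CI 0.37 to 0.53, limma adjusted p = 0.000229). The second PCNA probe set, which was dimmer, rose by 0.80.

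LIG1, the ligase that seals Okazaki fragments, lay at 8.24, 8.28 and 8.19 in control arrays and at 8.53, 8.57 and 8.55 with epirubicin. The groups did not overlap, and LIG1 was 1.24-fold higher, under the fold threshold (0.31, SE 0.04, limma adjusted p = 0.00121). Of its 6 probe sets 5 were higher at any fold. RPA3, the smallest subunit of the complex that coats single-stranded DNA, was higher by 0.17 (SE 0.03, limma adjusted p = 0.00663), while RPA1 and RPA2 differed by -0.07 and 0.03 and did not pass.

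In the clamp loader, RFC3 and RFC4 were each higher by 0.15 (SE 0.03 and 0.04, limma adjusted p = 0.0169 and 0.0204). The calls were kept in 7 and 8 of 13 alternatives, and both were lost as means over probe sets, at 0.106 for RFC3 and 0.0381 for RFC4. Those means take in dim probe sets, at mean levels of 3.62 and 3.24 for RFC3 and 2.13 and 2.54 for RFC4. The probe sets used were at 8.75 and 10.94. Another RFC3 probe set, at 7.58, differed by 0.09 and did not pass. RFC1, RFC2 and RFC5 differed by 0.10, -0.04 and 0.09 and did not pass. Of the 4 probe sets of RFC5, 1 rose by 0.42, and the other 3 differed by 0.05 to 0.09. The nuclease genes FEN1 and DNA2, which trim the flaps of Okazaki fragments, differed by 0.10 (limma adjusted p = 0.0522) and 0.11 (limma adjusted p = 0.204).

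Of the 4 genes of nucleotide supply none rose or fell at 1.3-fold (limma; at an unadjusted p under 0.05, 3 were higher and 0 lower), and 3 were higher at any fold. TK1, which salvages thymidine in dividing cells, lay at 9.73, 9.74 and 9.69 in control arrays and at 10.06, 10.02 and 10.08 with epirubicin. The groups did not overlap, and TK1 was 1.26-fold higher (0.33, SE 0.03, limma adjusted p = 0.000754). TYMS, which makes thymidylate from deoxyuridylate, lay at 11.98, 11.94 and 11.98 and at 12.27, 12.23 and 12.26. It was 1.22-fold higher (0.29, SE 0.03, limma adjusted p = 0.00102), and its second probe set rose by 0.39. RRM1, the large subunit of ribonucleotide reductase, was higher by 0.12 (SE 0.03, limma adjusted p = 0.0324, kept in 5 of 13 alternatives). RRM2, the S phase small subunit, lay at 12.07, 12.09 and 12.10 in control arrays and 12.09, 12.03 and 12.07 with epirubicin, where the groups overlapped (-0.02, CI -0.10 to 0.06).

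Of the 7 genes of fork protection, turnover and chromatin none passed both thresholds. At an unadjusted limma p under 0.05, 4 were higher and 1 lower. At any fold 4 were higher and 1 lower, or 57.1% and 14.3%, against 15.6% and 13.5% of all genes. Among genes above the median of all values these shares were 22% and 22.2%. DTL, the substrate receptor of the CRL4 ubiquitin ligase that removes CDT1 and p21 at PCNA, lay at 10.05, 10.06 and 10.06 in control arrays and at 10.39, 10.38 and 10.36 with epirubicin. It was 1.25-fold higher, with little spread in either group (0.32, SE 0.03, limma adjusted p = 0.000484). SLBP, which binds the stem loop of histone messages, lay at 11.35, 11.41 and 11.40 and at 11.08, 11.09 and 11.07. It was 1.24-fold lower, without overlap (-0.31, SE 0.03, limma adjusted p = 0.000824), and its second probe set differed by -0.34. CLSPN, the adaptor that activates the checkpoint kinase CHK1 at stalled forks, TIMELESS, which travels with the fork, and CHAF1B, a subunit of the histone chaperone CAF-1, were higher by 0.15, 0.11 and 0.16 at any fold. These 3 calls were lost when arrays were centred. CHAF1A, the large CAF-1 subunit, and UHRF1, which helps carry DNA methylation to the new strand, differed by 0.02 and -0.07 and did not pass. The sign of CHAF1A turned when arrays were centred.

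Promoter windows are shown for members on either side of these differences. RefSeq windows of 300 bases, 250 before and 50 after the start (GRCh38.p14), were found for 48 of the 55 members; DNA2, GINS4, MCM4, MCM5, POLD3, RPA2 and RPA3 had no entry. The windows below, each 5' to 3' on the strand of the gene, belong to PCNA, which rose (2 starts), DBF4, which fell, and MCM6 and CDC6, licensing genes that differed in opposite directions. Capitals mark TTTCGCGC or TTTGGCGC (E2F type), CCAAT (the NF-Y box) and TTTGAA (the core of the cell cycle homology region, CHR), on either strand.
PCNA, first start, chr20:5126573-5126872, minus strand: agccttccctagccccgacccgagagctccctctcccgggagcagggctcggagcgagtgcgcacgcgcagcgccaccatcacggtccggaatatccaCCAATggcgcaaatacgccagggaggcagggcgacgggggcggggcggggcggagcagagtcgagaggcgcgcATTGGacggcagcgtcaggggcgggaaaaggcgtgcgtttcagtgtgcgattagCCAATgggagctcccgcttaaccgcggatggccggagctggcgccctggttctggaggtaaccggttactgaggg
PCNA, second start, chr20:5119909-5120208, minus strand: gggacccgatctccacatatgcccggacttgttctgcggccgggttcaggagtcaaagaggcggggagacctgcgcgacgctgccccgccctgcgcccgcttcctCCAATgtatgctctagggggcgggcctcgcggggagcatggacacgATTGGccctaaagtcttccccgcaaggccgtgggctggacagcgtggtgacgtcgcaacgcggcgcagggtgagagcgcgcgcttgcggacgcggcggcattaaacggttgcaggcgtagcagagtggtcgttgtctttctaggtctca
DBF4, chr7:87876243-87876542, plus strand: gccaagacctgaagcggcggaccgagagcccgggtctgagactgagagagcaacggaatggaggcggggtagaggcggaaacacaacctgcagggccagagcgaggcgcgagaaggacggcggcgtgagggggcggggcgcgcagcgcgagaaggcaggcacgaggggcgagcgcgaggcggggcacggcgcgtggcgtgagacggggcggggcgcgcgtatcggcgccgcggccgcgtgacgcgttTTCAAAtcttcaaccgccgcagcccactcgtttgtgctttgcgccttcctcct
MCM6, chr2:135876394-135876693, minus strand: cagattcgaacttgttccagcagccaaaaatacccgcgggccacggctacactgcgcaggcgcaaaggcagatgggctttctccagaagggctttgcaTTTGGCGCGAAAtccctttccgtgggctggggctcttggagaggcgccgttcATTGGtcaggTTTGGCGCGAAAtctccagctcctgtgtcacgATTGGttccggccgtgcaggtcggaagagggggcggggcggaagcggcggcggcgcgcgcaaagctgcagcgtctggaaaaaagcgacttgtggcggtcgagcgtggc
CDC6, chr17:40287629-40287928, plus strand: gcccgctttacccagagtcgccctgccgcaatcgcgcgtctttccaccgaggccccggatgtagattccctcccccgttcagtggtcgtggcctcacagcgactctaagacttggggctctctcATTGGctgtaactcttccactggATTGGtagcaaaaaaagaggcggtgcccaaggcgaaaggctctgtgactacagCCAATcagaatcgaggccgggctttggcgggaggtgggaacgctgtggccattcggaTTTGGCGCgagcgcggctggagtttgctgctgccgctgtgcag

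The MCM6 window holds 2 E2F-type stretches that begin 152 and 90 bases before the start, and in each the forward match overlaps a match on the other strand, so 4 matches were counted. CDC6 holds 1 such match, 7 bases after the start, and 3 CCAAT boxes. Neither PCNA window holds TTTCGCGC or TTTGGCGC on either strand, and they hold 3 and 2 CCAAT boxes. Related E2F forms were not searched, so the PCNA windows cannot be said to lack an E2F-type sequence. DBF4 holds 1 TTTGAA match on the other strand, which begins 3 bases before the start, and no other of these motifs.

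Over the 48 members with a window, 27.1% hold an E2F-type match, against 1.40% of 27305 genes in the table, and 60.4% hold CCAAT, against 39.7%. TTTGAA was found in 4.17% of members, DBF4 and RRM1, against 18.2% of all genes. A match describes letters in these windows and not a bound site. The 13 members with an E2F-type match included 4 that were lower and 2 that were higher at any fold (median log2 difference -0.07), and the 35 without included 4 lower and 11 higher (0.05). By role the match was found in 6 of 13 licensing genes and 4 of 8 polymerase and primase genes. It was found in 0 of 9 clamp and lagging strand genes and 0 of 4 nucleotide genes. All these E2F-type counts cover TTTCGCGC and TTTGGCGC only, so a gene without a match may hold a related form. The p53 consensus, searched by name as a full site on both strands, was found in 0 of 48 members and in 0.0366% of all genes in these windows.

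Other genes of the same pathway were taken from 6 further lists, in which 78 of 82 genes were measured and 4 were not analysed here. Of the 78, 1 rose and 8 fell, or 1.28% and 10.3%, against 4.36% and 2.14% of all genes, and at any fold 6 were higher and 32 lower, or 7.69% and 41.0%, against 15.6% and 13.5% of all genes. Their median was -0.06. The fallen genes were found in 3 of the lists, those of fork and lagging strand factors, of purine and pyrimidine synthesis and of licensing factor turnover.

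Of 17 genes that make purines and pyrimidines, 4 fell and 0 rose (limma, with 13 lower and 0 higher at an unadjusted p under 0.05). At any fold 12 were lower, or 70.6%, against 13.5% of all genes and 22.2% of genes above the median of all values. The list's median difference was -0.24. DHODH, the mitochondrial enzyme of pyrimidine synthesis, went from 6.79 to 6.27 (-0.53, SE 0.04, limma adjusted p = 0.000318). PFAS, an enzyme of the purine pathway, fell by 0.46 on 1 of its 4 probe sets and by 0.30 as a mean over them, which misses the fold threshold. IMPDH1, which commits purines to guanine nucleotides, fell by 0.44 and on 2 of its 4 probe sets. PPAT, which opens the purine pathway, fell by 0.41, on 1 of its 2 probe sets, and was named after its value was seen. The 4 members of nucleotide supply, which act on deoxynucleotides, had a median of 0.20. A list of 11 other deoxynucleotide enzymes, given next, had a median of -0.05. No test compared these lists.

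In the list of other deoxynucleotide enzymes 1 of 11 rose and 0 fell (limma; at an unadjusted p under 0.05, 2 were higher and 4 lower). At any fold 1 was higher and 3 lower, or 9.09% and 27.3%, against 15.6% and 13.5% of all genes. The list's median difference was -0.05. The gene that rose was RRM2B, a small subunit of ribonucleotide reductase that p53 induces and that can take the place of RRM2. It went from 6.69 to 7.37 (0.69, SE 0.04, limma adjusted p = 7.42e-05). Of its 9 probe sets 3 rose. The mean over all 9 differed by 0.30, short of the fold threshold, and with means over probe sets 0 genes of the 6 lists rose.

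A further list held 11 genes that act in the turnover of licensing factors, most of them ligase components. Of these 2 fell and 0 rose (limma, with 9 lower and 0 higher at an unadjusted p under 0.05). At any fold 9 were lower, or 81.8%, against 13.5% of all genes and 22.2% of genes above the median of all values. The list's median difference was -0.25. CCNF, which encodes cyclin F, a ligase receptor for CDC6 and RRM2, fell from 7.92 to 7.22 (-0.70, SE 0.04, limma adjusted p = 6.62e-05) on both of its probe sets. SKP2, a receptor for CDT1 and p27, fell by 0.61 on 1 of 2 probe sets and by 0.37 as a mean over both, short of the fold threshold. CUL4A and DDB1, the scaffold and adaptor of the DTL ligase, were lower by 0.26 and 0.25 at any fold (limma adjusted p = 0.00177 and 0.00130), and DTL was higher by 0.32. CUL4A and DDB1 were singled out after their values were seen. CUL4B and RBX1, further ligase components in the list, differed by 0.02 and 0.009 and did not pass.

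Of 14 other fork and lagging strand genes 2 fell and 0 rose (limma; at an unadjusted p under 0.05, 4 were higher and 5 lower). RNASEH1, which removes RNA paired with DNA, fell by 0.45 (SE 0.03, limma adjusted p = 0.000134). TIPIN, the partner of TIMELESS, fell by 0.38 (SE 0.04, limma adjusted p = 0.000527), on the fold threshold. It came short of that threshold with quantile normalization and without control replicate 1, control replicate 3 or epirubicin replicate 3, at -0.36 to -0.37. Among 11 other licensing and firing factors and 14 genes of replication-coupled chromatin, 0 rose or fell (limma; at an unadjusted p under 0.05, 3 were higher and 2 lower in the first list, 2 higher and 4 lower in the second). The medians were -0.01 and 0.03.

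**Figure D4:**
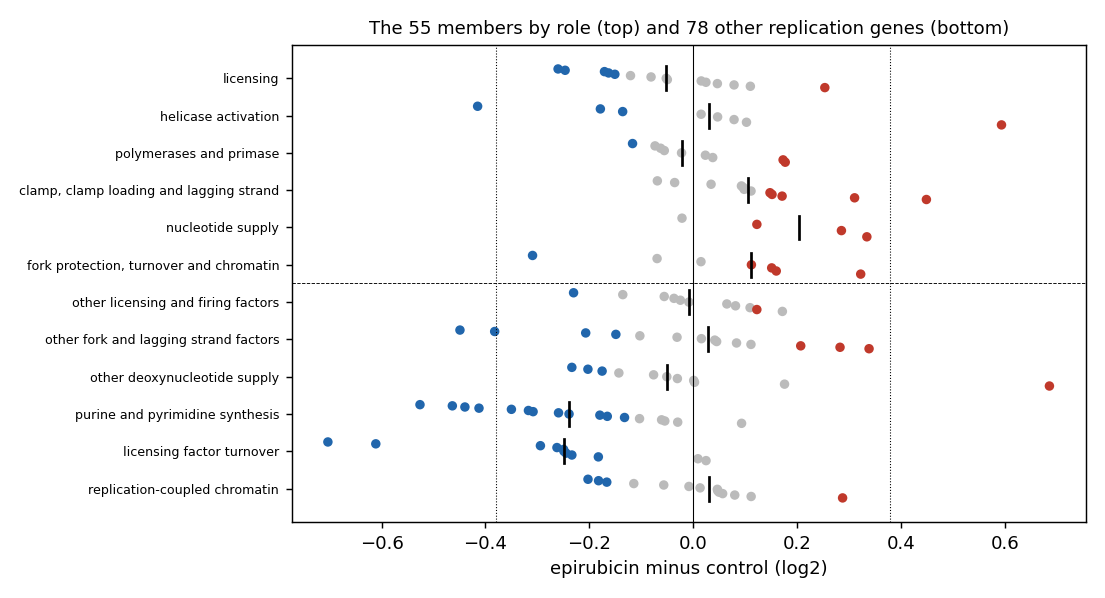
Each point is 1 gene, as its log2 difference, for the 6 roles of the 55 members (above the dashed line) and the 78 measured genes of 6 other replication lists (below it); colours mark a limma adjusted p under 0.05 upward (red) or downward (blue), black bars the medians, dotted lines a fold of 1.3. Purine and pyrimidine synthesis and licensing factor turnover have medians of -0.24 and -0.25. Nucleotide supply stands at 0.20 and other deoxynucleotide supply at -0.05.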

How the data were processed

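The deposited table holds the authors' log2 expression values for 47481 probe sets on 6 arrays. Values run from 1.41 to 13.73, which fits a log2 scale. The affy package, with no version, is named in the submitters' processing notes; how background and scale were set is not stated there. Array medians were 5.52 to 5.57, and nothing was normalized again. Probe sets naming 1 gene (43976) were kept, several genes 1558, none 1947; symbols were updated by Entrez number (GRCh38.p14, 43954 matched), and the brightest per gene over 6 arrays was used, giving 17534 genes. limma 3.58.1 in R 4.3.3 compared 3 epirubicin with 3 control arrays (no covariate, Benjamini-Hochberg over all genes), with the series' thresholds of 0.05 and 1.3-fold; CI is 95%. The fit was tested on simulated data. Detection calls were not used here, and 3 arrays per group limit precision.

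Members and lists were chosen with earlier results of these data known. All 55 members are named, with every array for the 2 largest differences of each role; MCM6, MCM7 and RRM2 were added to these after their values were seen. Other lists name called genes, up to 3 per direction. Alternatives changed the probe set per gene, normalization, a dim filter, the test, the threshold, a replicate block and each array left out.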

Additional observations from a re-analysis of the deposited data

How the results depend on the processing

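GINS4 and PCNA rose and DBF4 fell, with an adjusted p under 0.05 and a fold of at least 1.3, in 13, 13 and 12 of 14 alternatives. With limma's treat test against a fold of 1.3, 0 members rose (weaker than the 2) and 0 fell, other replication genes that fell numbered 1, and over all genes 272 rose and 91 fell, against 765 and 376. Leaving out single arrays gave 2 to 2 members risen, 0 to 1 fallen, 8 to 12 higher and 6 to 9 lower at any fold, a median of 0.0196 to 0.0429, 1 to 1 other genes risen and 7 to 9 fallen, and 723 to 807 and 363 to 404 over all genes. With arrays centred on their medians 10 members were higher at any fold and the median was 0.00197; with quantile normalization it was 0.0599. With the mean of all probe sets of a gene, 0 other replication genes rose, and CDC7 turned to -0.108. With the replicate number as a block, 8 members were higher and 6 lower at any fold (MCM3 and MCM4 did not pass, at limma adjusted p of 0.0546 and 0.0855), and the 2 and 1 called members were unchanged in number. Arrays of the same number did not deviate together (r = -0.0587, -0.000359 and -0.00681). That shows no shared deviation, but it cannot show whether samples of the same number were prepared together. Of 910 recomputed values of 65 named genes, 879 kept their direction and their outcome at the 1.3-fold threshold. Another 18 lost the call at that threshold and 12 uncalled ones changed sign, and CDC7 is the remaining one. These counts do not follow calls at any fold. Those calls were kept in each of 13 alternatives by 8 of the 16 higher and 5 of the 10 lower members. Without detection calls, signal over background could not be examined.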
